A study of Mus musculus with 4 samples.

Results

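The genes of the epidermal differentiation complex were followed here in ureters of newborn mice that were cultured for 8 days with and without *Pparg* in the epithelium. Members were taken from the gene names on the arrays: all small proline-rich (*Sprr*) genes, all numbered late cornified envelope (*Lce*) genes, and *Lor*, *Ivl*, *Flg*, *Flg2*, *Rptn*, *Hrnr*, *Tchh*, *Crnn* and *Lelp1*. This gave 44 genes with 51 probes among 29924 gene names, namely 15 *Sprr* genes, 21 *Lce* genes and 8 others. No spot used here carries the name *Flg*, so filaggrin was not analysed here. All 51 probes lie on mm9 chromosome 3 between 91884206 and 93252912, a stretch of 1369 kb.

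The 4 groups of explants came from the outbred NMRI strain, were dissected at P0 and were kept in culture for 8 d. *Pparg-cKO* ureters were Pax2-cre/+; Pparg (fl/fl), and control ureters were labelled Pparg (fl/?) with no cre named, so both genotypes carry the floxed allele and the state of the second allele of the controls is not given. The medium of each genotype held either 2 µM purmorphamine, an agonist of Smoothened that turns on SHH signaling, or the solvent DMSO. On each of 4 two-color arrays a DMSO pool was set against the purmorphamine pool of the same genotype and sex. Every group thus had 2 pools, 1 male and 1 female, and the dyes were exchanged between the sexes. Pools of one treatment that differ in sex therefore also differ in dye and in replicate number, and these cannot be told apart. The ureters per pool are not stated for these cultures, and p-values measure only the spread between pools. Pax2-cre recombines in the nephric duct and its derivatives, the epithelia of ureter and collecting duct, so that the mesenchyme of the explants keeps *Pparg*.

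The epidermal differentiation complex is a cluster of genes that keratinocytes switch on late, when they build the cornified envelope. Involucrin (*Ivl*) and small proline-rich proteins are cross-linked by transglutaminases under the plasma membrane, loricrin (*Lor*) and the late cornified envelope proteins reinforce this scaffold, and fused S100-type proteins such as filaggrin, hornerin, repetin and trichohyalin bundle or coat keratin filaments. Urothelium does not cornify, although it makes involucrin and some small proline-rich proteins, and genes of the complex come on when a urothelium turns squamous.

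Levels are given as scaled intensities. These are the processed signals of the scanner software, scaled in each channel so that the 75th percentile is 1500, with values under 15 set to 15, and a value of 15 is a floor and not a level. A gene is called well above background in a pool when most of the spots of its probe carry that flag. Where a pair of pools is given, the male pool stands first. Intensities of different probes are not compared with each other, and in whole explants a change in the number of cells of a type and a change in RNA per cell cannot be told apart.

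One pool stood apart from the other 7 and touches most results below. In the female *Pparg-cKO* pool with DMSO, 58 of 29924 genes had an intensity above 100 and at least 10 times that of every other pool, whereas 0 genes did so in any of the other 7 pools. Of these 58 genes, 19 are among the 44 followed here: 12 *Lce* genes, 6 *Sprr* genes and *Lor*. A further 4 belong to the same cluster, namely *Crct1*, *Kprp*, *S100a8* and *S100a9*. The share of all genes above an intensity of 100 was alike in the 8 pools (50.8% to 51.5%). The scaling of each channel largely sets this share, so it does not show whether this pool was otherwise like the others. As a check of the labels, *Shh* was 1979 to 2644 in the 4 control pools and 234 to 655 in the 4 *Pparg-cKO* pools, and *Ptch1*, a target of SHH signaling, was 121 to 227 in the DMSO pools and 413 to 551 in the purmorphamine pools. The *Pparg* probe was no lower in *Pparg-cKO* (16971 to 24715) than in control pools (10612.5 to 14540). Whether it lies inside the floxed exons was not tested, so it does not check the deletion.

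The sequences upstream of 6 members are shown because their levels showed different patterns over the pools: *Sprr1a* was bright in every pool, *Sprr2d*, *Sprr2h* and *Lor* were higher in both *Pparg-cKO* pools with DMSO than in either control pool, and *Sprr1b* and *Lce3d* stood out in female *Pparg-cKO* pools only. Each run holds the 250 bases before the start of the gene (RefSeq, GRCm38.p6), with matches to the AP-1 motif TGANTCA and to the TATA box TATAAA in capitals.
*Sprr1a*: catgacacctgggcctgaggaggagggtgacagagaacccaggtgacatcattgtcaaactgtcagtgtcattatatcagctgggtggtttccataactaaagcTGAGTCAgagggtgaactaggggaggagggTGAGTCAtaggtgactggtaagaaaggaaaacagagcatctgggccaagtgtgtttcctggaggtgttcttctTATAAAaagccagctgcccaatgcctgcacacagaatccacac
*Sprr1b*: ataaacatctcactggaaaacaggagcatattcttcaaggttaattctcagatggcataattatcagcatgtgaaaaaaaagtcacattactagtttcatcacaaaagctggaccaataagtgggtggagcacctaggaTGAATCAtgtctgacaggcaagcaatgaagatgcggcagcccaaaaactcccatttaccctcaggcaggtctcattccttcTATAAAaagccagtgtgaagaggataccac
*Sprr2d*: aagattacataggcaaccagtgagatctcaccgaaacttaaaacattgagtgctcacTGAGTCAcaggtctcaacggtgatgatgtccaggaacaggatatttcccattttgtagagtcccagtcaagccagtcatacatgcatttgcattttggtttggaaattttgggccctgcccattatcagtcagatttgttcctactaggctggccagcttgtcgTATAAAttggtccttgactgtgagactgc
*Sprr2h*: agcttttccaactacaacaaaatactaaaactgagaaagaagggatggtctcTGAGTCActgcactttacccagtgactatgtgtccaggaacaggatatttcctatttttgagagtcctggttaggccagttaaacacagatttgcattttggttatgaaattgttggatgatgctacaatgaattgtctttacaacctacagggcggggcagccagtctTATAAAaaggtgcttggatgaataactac
*Lor*: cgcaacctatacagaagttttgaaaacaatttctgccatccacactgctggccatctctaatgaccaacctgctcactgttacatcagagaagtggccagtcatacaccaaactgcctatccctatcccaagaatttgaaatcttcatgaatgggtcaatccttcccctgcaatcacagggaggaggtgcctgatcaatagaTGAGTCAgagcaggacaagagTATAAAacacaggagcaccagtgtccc
*Lce3d*: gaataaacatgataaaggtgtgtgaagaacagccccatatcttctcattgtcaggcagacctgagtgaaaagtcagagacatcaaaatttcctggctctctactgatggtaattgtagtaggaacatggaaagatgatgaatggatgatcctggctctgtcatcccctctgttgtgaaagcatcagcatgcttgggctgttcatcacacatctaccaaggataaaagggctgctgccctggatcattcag
These runs are *Sprr1a* chr3:92485882-92486131 (minus strand), *Sprr1b* chr3:92438780-92439029 (minus strand), *Sprr2d* chr3:92338890-92339139 (plus strand), *Sprr2h* chr3:92385435-92385684 (plus strand), *Lor* chr3:92083143-92083392 (minus strand), *Lce3d* chr3:92957140-92957389 (plus strand). A promoter entry was found for 41 of the 44 members. The AP-1 motif, read on both strands, occurred in the 250 upstream bases of 9 of 13 *Sprr* genes and 0 of 20 *Lce* genes, and also in *Lor*, *Ivl*, *Rptn*, *Crnn* and *Flg2*, which makes 14 of 41 members (34.1%) against 6.75% of 32851 promoter entries of all genes. TATAAA and the motifs named next were also read on both strands. TATAAA occurred in 10 of 13 *Sprr* genes and 4 of 20 *Lce* genes, against 12.4% of all entries. In *Lce3e* and *Lce6a* the match was TTTATA, the motif on the opposite strand. Neither the GLI motif TGGGTGGTC (0.225% of all entries) nor the PPAR response element, a direct repeat with a 1-base spacer (0.0335%), was found in any of the 41. The letters of the AP-1 and TATA motifs cannot overlap, and a match is a description of the sequence only.

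In 6 of the 8 pools, between 18 and 26 of the 44 genes (40.9% to 59.1%) were well above background, and 8 to 11 had an intensity above 100. Of all genes on the array, 64.7% to 68.8% were well above background in the 8 pools, and 50.8% to 51.5% were above 100. The female *Pparg-cKO* pool with DMSO had 43 of 44 genes (97.7%) well above background and 37 (84.1%) above an intensity of 100. The female *Pparg-cKO* pool with purmorphamine, from the same array, came next with 37 and 22 genes. The male *Pparg-cKO* pools, with 22 and 20 genes well above background, lay within the range of the control pools. Only *Crnn*, which encodes cornulin, was well above background in no pool, and 15 members were so in all 8.

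**Figure D1:**
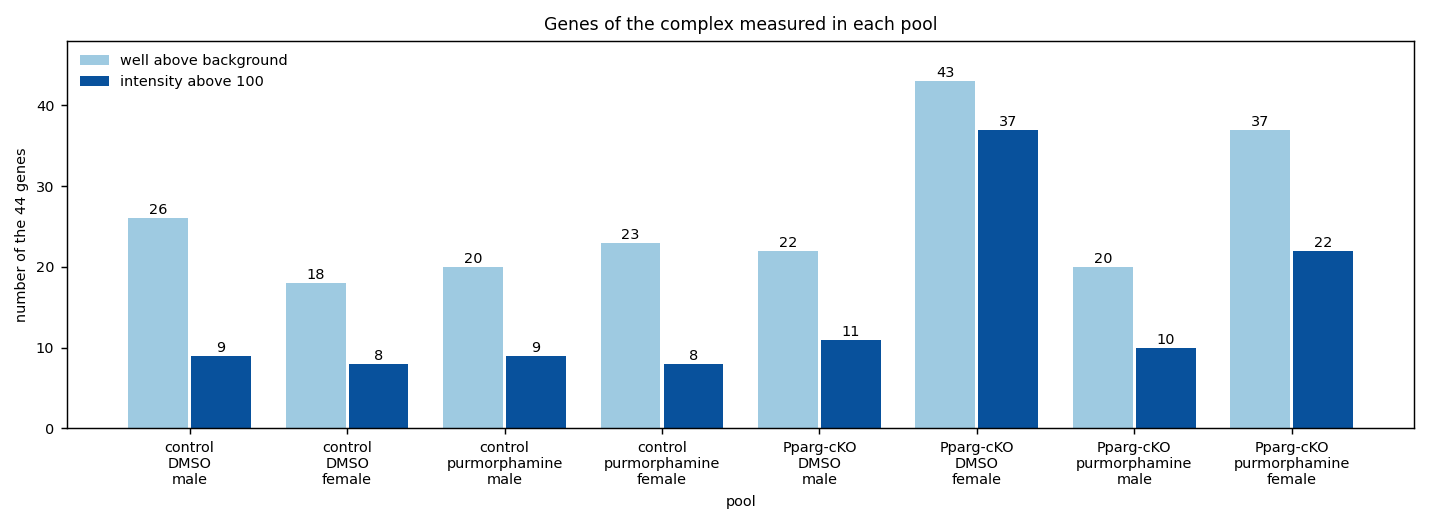
Number of the 44 genes of the complex (vertical axis) that were well above background (light bars) or above an intensity of 100 (dark bars) in each of the 8 pools. The female *Pparg-cKO* pool with DMSO (43 and 37 genes) and its purmorphamine partner (37 and 22) stand above the other 6 pools (18 to 26 and 8 to 11).

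**Figure D2:**
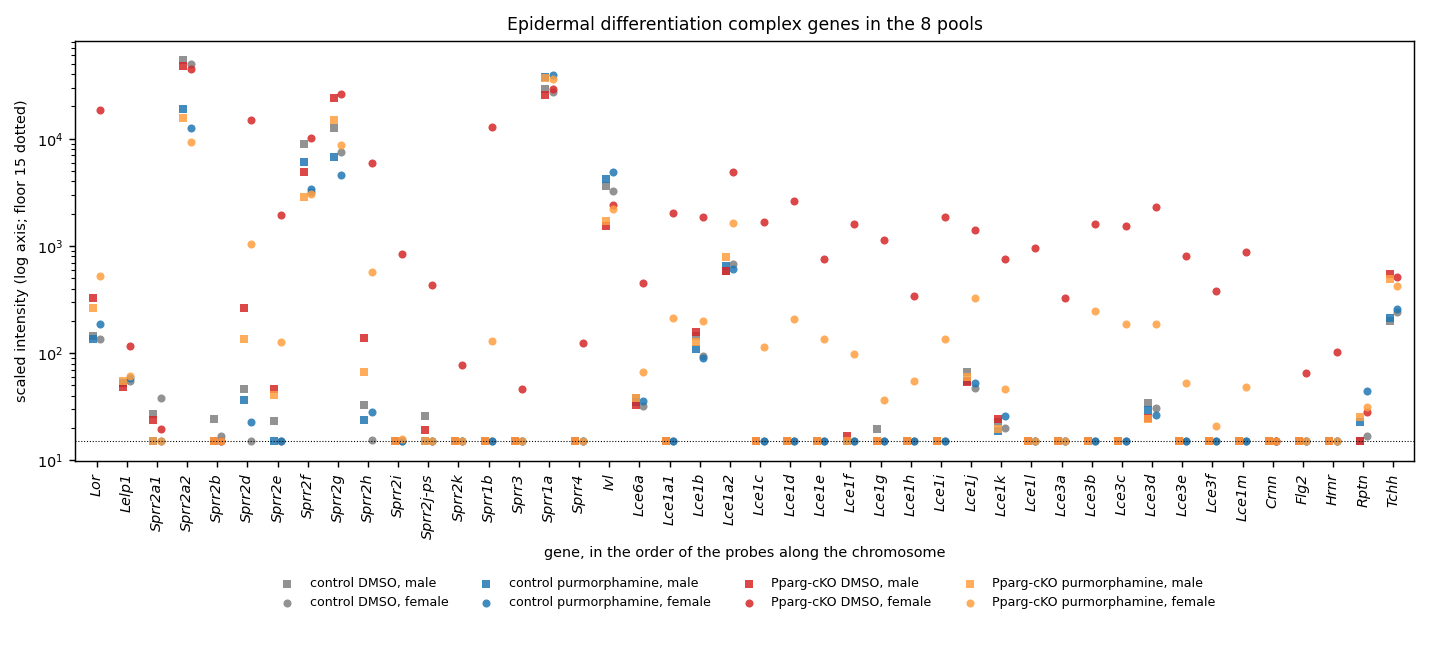
Scaled intensity (log axis) of each gene of the complex, ordered by the position of its probe along the chromosome, in the 8 pools. Squares are male and circles female pools, colors give genotype and treatment, and the dotted line is the floor of 15. The red circles, the female *Pparg-cKO* pool with DMSO, were the highest of all pools for 36 of 44 genes.

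The late cornified envelope genes, whose small cysteine-rich proteins are added to the envelope in the uppermost layers of the epidermis, showed this pool most plainly. All 21 *Lce* genes were above an intensity of 100 in the female *Pparg-cKO* pool with DMSO, from 324 for *Lce3a* to 4940 for *Lce1a2*, with a median of 1403. In the control pools the median was 15, the floor, and 14 or 15 of the 21 genes sat at it. The male *Pparg-cKO* pools also had a median of 15, with 14 and 15 genes at the floor.

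A probe of 10 *Lce* genes passed the filter, that is, both pools of 1 group or more were well above background. *Lce1a1* was 2027 in the female *Pparg-cKO* DMSO pool, 212 in its purmorphamine partner and 15 in each of the other 6 pools. *Lce1c* was 1667 and 115 in these 2 pools and 15 elsewhere. *Lce1f* was 1598 and 98.5 there, 16.8 in the male *Pparg-cKO* DMSO pool and 15 in the other 5. In all 3 genes both female *Pparg-cKO* pools lay above every other pool. *Lce1g* was 1131 in the female *Pparg-cKO* DMSO pool, 36.9 with purmorphamine, 19.6 in the male control DMSO pool and 15 in the remaining 5. *Lce1j* was 1403 and 324 in the female *Pparg-cKO* pools against 47.7 to 67.2 in the other 6, and *Lce1k* was 755 and 46.2 against 18.8 to 25.7. Again no other pool reached the female *Pparg-cKO* pools.

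*Lce3d* was 2287 in the female *Pparg-cKO* DMSO pool and 188 with purmorphamine, against 24.2 to 33.9 in the other 6 pools. *Lce6a* was 451 and 66.8 against 31.9 to 38.2. *Lce1b* was 1874 and 197 against 90.8 to 156. *Lce1a2* was the only *Lce* gene above an intensity of 100 in all 8 pools, at 4940 and 1653 in the female *Pparg-cKO* DMSO and purmorphamine pools and 587 to 785 in the others, and its dimmer probe showed the same order (2326 and 320 against 82.2 to 112). The remaining *Lce* genes, *Lce1d*, *Lce1e*, *Lce1h*, *Lce1i*, *Lce1l*, *Lce1m*, *Lce3a*, *Lce3b*, *Lce3c*, *Lce3e* and *Lce3f*, were not well above background in both pools of any group. They reached 324 to 2625 in the female *Pparg-cKO* DMSO pool and 15 to 245 with purmorphamine, and lay at 15 in the other 6 pools. Probes of *Lce3b* and *Lce3c* share a run of 28 bases and a second probe of *Lce1i* shares 29 with that of *Lce1h*, so their signals are not fully separate.

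The genes of small proline-rich proteins, the flexible cross-bridges of the envelope, differed in their patterns. Some had bright signal in all pools and some followed the *Lce* genes. Others were also raised in the male *Pparg-cKO* pools or lay close to the floor throughout. *Sprr1a* was 29323 and 27126 in the control DMSO pools, 37682 and 39161 with purmorphamine, 25407 and 29310 in the *Pparg-cKO* DMSO pools and 36903 and 36080 with purmorphamine. The purmorphamine pools were above the DMSO pools in both genotypes, and the genotypes overlapped. Its neighbour in the family, *Sprr1b*, was 12840 in the female *Pparg-cKO* DMSO pool, 129 with purmorphamine and 15 in the other 6 pools, and was not well above background there. Against the lowest signal measured above background in the female control pool with DMSO, *Sprr1b* was at least 392-fold higher in the female *Pparg-cKO* pool, in 1 pool each and with no test.

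*Sprr2d* was 46.3 (male) and 15 (female) in the control DMSO pools, 36.8 and 22.7 with purmorphamine, 266 and 14954 in the *Pparg-cKO* DMSO pools and 134 and 1052 with purmorphamine. All 4 *Pparg-cKO* pools were above all 4 control pools. *Sprr2h* was 32.8 and 15.5 in the control DMSO pools, 23.8 and 28.5 with purmorphamine, 139 and 5968 in the *Pparg-cKO* DMSO pools and 66.4 and 574 with purmorphamine, with the same separation of the genotypes. *Sprr2e* was 15 to 23.1 in the control pools, 46 and 1958 in the *Pparg-cKO* DMSO pools and 40.9 and 126 with purmorphamine. For these 3 genes the male *Pparg-cKO* pools, which were near the control pools for *Lce* genes, also lay above every control pool, though by far less than the female pools.

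*Sprr2g*, a transcribed pseudogene in RefSeq, was 12664 and 7519 in the control DMSO pools, 6772 and 4540 with purmorphamine, 23899 and 26321 in the *Pparg-cKO* DMSO pools and 14898 and 8716 with purmorphamine. At each treatment both *Pparg-cKO* pools were above both control pools, and each purmorphamine pool was below the DMSO pool of its array. *Sprr2f* was 9014 and 3203 in the control DMSO pools, 6114 and 3429 with purmorphamine, 4932 and 10177 in the *Pparg-cKO* DMSO pools and 2862 and 3044 with purmorphamine. Here the genotypes overlapped with DMSO, while both *Pparg-cKO* purmorphamine pools were below both control ones. *Sprr2j-ps*, another pseudogene, was 428 in the female *Pparg-cKO* DMSO pool and 15 to 26.1 elsewhere. *Sprr2b* was between 15 and 24.1 and *Sprr2a1* between 15 and 38.1 in all pools, close to the floor. *Sprr2i*, *Sprr2k*, *Sprr3* and *Sprr4* were not well above background in both pools of any group. They reached 833, 77.1, 46.1 and 124 in the female *Pparg-cKO* DMSO pool and did not exceed 15.7 in any other.

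*Sprr2a2* has 3 probes that gave different pictures, and parts of them are shown because the reading of this gene depends on the probe. They are set beside the probes of *Sprr2d*, *Sprr2h* and *Sprr2f*. Each run is 30 bases of the 60-base probe, with the longest stretch shared with a probe of another *Sprr* gene in capitals.
*Sprr2a2* probe 1: taaaaAAGTGTCtcagtgcttgactgcagt
*Sprr2a2* probe 2: ctgctGTTTCATTTCCTGAAataaaaaagg
*Sprr2a2* probe 3: attcatggcctAATAAACAAaaacgaaaaa
*Sprr2d*: tgtgttgtcagcatgGTTTCATTTCCTGAA
*Sprr2h*: ACATTTTTCAAATCTttctgacattttgcc
*Sprr2f*: tcagtatgACATTTTTCAAATCTctctgtc
On mm9, plus strand, these are chr3:92054627-92054656, chr3:92058417-92058446 and chr3:92060614-92060643 for *Sprr2a2*, chr3:92144751-92144780 for *Sprr2d*, chr3:92191160-92191189 for *Sprr2h* and chr3:92170278-92170307 for *Sprr2f*. The brightest *Sprr2a2* probe shares 15 bases with that of *Sprr2d*, and *Sprr2f* shares 15 with *Sprr2h*. All 3 *Sprr2a2* probes are also annotated to the RefSeq transcript of *Sprr2a1*, so they measure near-identical copies together. The probe named *Sprr2a1* carries no RefSeq transcript in the array's annotation.

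The brightest probe, number 2, which stands for the gene in the tests, was 54464 and 49405 in the control DMSO pools, 18766 and 12556 with purmorphamine, 47516 and 44444 in the *Pparg-cKO* DMSO pools and 15653 and 9267 with purmorphamine. On all 4 arrays the purmorphamine pool was the lower one, and no purmorphamine pool reached a DMSO pool. Probe 3 was 13964 to 16827 in all 8 pools and did not separate the treatments. Probe 1 was 2797 and 2478 in the control DMSO pools, 1673 and 1962 with purmorphamine, and 1275 to 1501 in the *Pparg-cKO* pools, so that the 4 *Pparg-cKO* pools were all below the control pools.

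**Figure D3:**
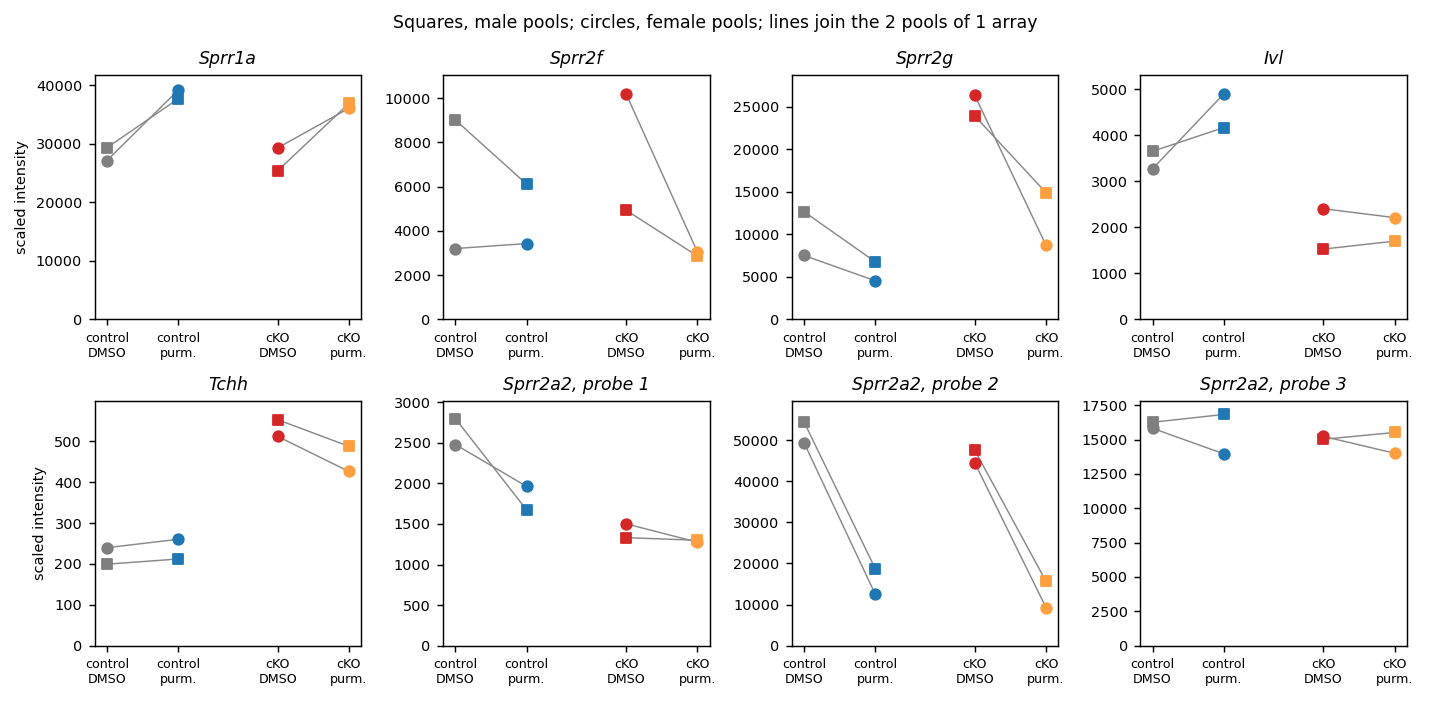
Scaled intensity (linear axes from 0) of *Sprr1a*, *Sprr2f*, *Sprr2g*, *Ivl*, *Tchh* and the 3 probes of *Sprr2a2* in the 8 pools. Squares are male and circles female pools, and a line joins the DMSO and purmorphamine (purm.) pools of an array. *Tchh* is higher and *Ivl* lower in all *Pparg-cKO* pools than in all control pools, and of the *Sprr2a2* probes only probe 2 keeps all purmorphamine pools (9267 to 18766) below all DMSO pools (44444 to 54464).

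Loricrin, the main bulk protein of the epidermal envelope, had the highest value of the *Lor* probe in the female *Pparg-cKO* DMSO pool, at 18536. *Lor* was 145 and 136 in the control DMSO pools, 135 and 186 with purmorphamine, 329 in the male *Pparg-cKO* DMSO pool, and 264 and 520 in the male and female *Pparg-cKO* purmorphamine pools. All *Pparg-cKO* pools were above all control pools, and the female DMSO pool was 35.7 times the next highest.

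Involucrin, an early scaffold protein that urothelium also makes, ran the other way. *Ivl* was 3654 and 3274 in the control DMSO pools, 4169 and 4901 with purmorphamine, 1529 and 2406 in the *Pparg-cKO* DMSO pools and 1701 and 2213 with purmorphamine. All 4 *Pparg-cKO* pools were below all 4 control pools, the female *Pparg-cKO* DMSO pool included. A second *Ivl* probe showed the same separation, at 1981 to 2690 in the control and 821 to 1379 in the *Pparg-cKO* pools.

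Among the fused S100-type genes, *Tchh*, which encodes the keratin-filament protein trichohyalin of the inner root sheath and of filiform papillae, was 199 and 240 in the control DMSO pools, 212 and 260 with purmorphamine, 553 and 512 in the *Pparg-cKO* DMSO pools and 488 and 426 with purmorphamine. The genotypes did not overlap and the female *Pparg-cKO* DMSO pool did not stand out. Of the hair follicle markers, the root sheath keratins *Krt25*, *Krt27* and *Krt71* were at 15 in all 8 pools. *Rptn*, which encodes repetin, was between 15 and 44.7 with no order by genotype. *Hrnr* (hornerin), *Flg2* (filaggrin-2) and *Crnn* were not well above background in both pools of any group, at 102, 64.6 and 15 in the female *Pparg-cKO* DMSO pool and 15 elsewhere. *Lelp1*, a proline-rich gene near *Lor*, was 118 in the female *Pparg-cKO* DMSO pool and 48.4 to 60.7 in the other 7.

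The first comparison asked how loss of *Pparg* changed these genes in cultures with DMSO. Of the 44 members, 25 were tested by limma, the others having no probe well above background in both pools of a group. Of the 25, 15 were well above background in all 4 groups, while *Lce1a1*, *Lce1f*, *Lce1g* and *Sprr2j-ps* passed only through *Pparg-cKO* groups, so that a difference in them is no independent evidence. *Tchh* was higher in *Pparg-cKO* ureters with a log2 fold change of 1.12 (SE 0.13, adjusted p = 0.0077), with 1.29 between the male and 0.94 between the female pools, and no member was called lower. With the replicate number, which marks sex and dye, as a block, its adjusted p was 0.1. This 1 call stands against 2.01% of all 20229 tested genes called higher and 1.91% lower. *Sprr2d* was well above background in 1 of the 2 control DMSO pools, the male one, and its fitted log2 fold change of 5.49 (SE 1.74, adjusted p = 0.18) is therefore no measured size. It was 1.96 between the male pools, and between the female pools only a bound holds, given below. *Sprr2h* had 4.31 (SE 1.6, adjusted p = 0.25) with 1.43 and 7.19, and *Lor* had 3.92 (SE 1.58, adjusted p = 0.3) with 0.99 and 6.84. For these 3 genes the 2 *Pparg-cKO* pools lay further apart than the group means, and none passed the test. Without the male *Pparg-cKO* array, that is, with the female pools as the lone *Pparg-cKO* pools, 15 members were called higher, *Sprr2d*, *Sprr2h* and *Lor* among them, against 1.36% of all genes higher and 0.801% lower, and *Tchh* was not among them (adjusted p = 0.063). Of the 15, 4 had passed the filter only through *Pparg-cKO* groups. Without the female one 1 was called higher, against 0.83% of all genes higher and 0.776% lower, and without either control array 0 were.

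The *Lce* genes had log2 differences of -0.38 to 0.30 between the male pools and of 2.81 to 6.17 between the female pools, and none passed the test (adjusted p from 0.4 to 0.55). For the *Lce* genes whose control pools were not well above background, these fitted differences are no bounds. *Sprr2g* had a log2 fold change of 1.38 (SE 0.33, adjusted p = 0.076), with both pools in the same direction. *Ivl* had -0.84 (SE 0.23, adjusted p = 0.12), with -1.21 and -0.46. Without the female *Pparg-cKO* array, the log2 fold change of *Tchh* was 1.18 (adjusted p = 0.058, the lone pool being assumed to vary like the others) and that of *Sprr2h*, then from the male *Pparg-cKO* pool alone, was 1.68 (adjusted p = 0.041). Where the control pools were not well above background, only bounds hold between the female pools: *Sprr2d* was at least 467-fold, *Lce1d* at least 79.5-fold and *Lce1a1* at least 63.6-fold higher in the female *Pparg-cKO* DMSO pool.

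The rule of the study's methods uses no test and asks for an intensity above 100 and a change of at least 1.5-fold in both pairs. It called *Sprr2d*, *Sprr2g*, *Sprr2h*, *Lor* and *Tchh* higher and *Sprr2a2* lower in *Pparg-cKO* ureters with DMSO, against 2.59% of genes above the threshold called higher and 2.92% lower. The call of *Sprr2a2* rests on probe 1. By the female pair alone the rule called 34 members higher and 1 lower, against 8.05% and 7.09% of genes, and by the male pair alone 5 and 3, against 9.07% and 6.19%. *Sprr2f* was called by both, in opposite directions: it was 1.83-fold lower between the male pools and 3.18-fold higher between the female pools.

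**Figure D4:**
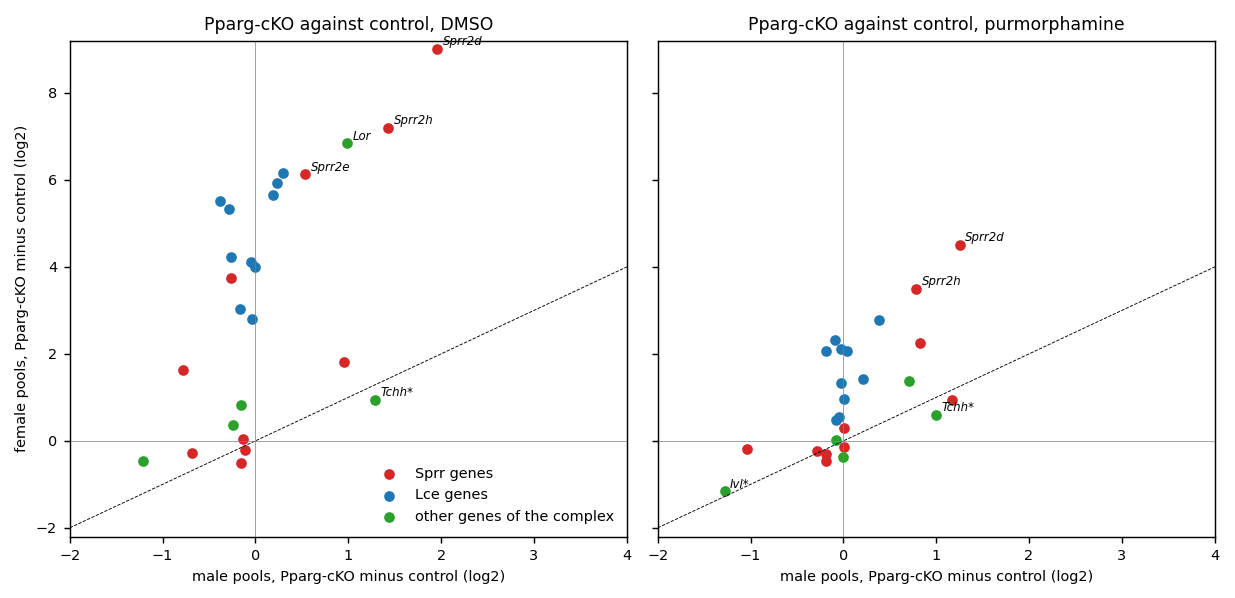
Difference between *Pparg-cKO* and control pools (log2) for the 25 tested genes, male pools on the horizontal and female pools on the vertical axis, with DMSO (left) and purmorphamine (right). Asterisks mark genes past the test and the dashed line marks equal differences. With DMSO the *Lce* genes lie near 0 for the male pools and at 2.81 to 6.17 for the female pools.

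With purmorphamine in the medium of both genotypes, *Tchh* was again higher in *Pparg-cKO* ureters (log2 fold change 0.80, SE 0.13, adjusted p = 0.031), and *Ivl* was lower (-1.22, SE 0.23, adjusted p = 0.044), with -1.28 between the male and -1.16 between the female pools. With the replicate number as a block neither passed, with an adjusted p of 0.23 for *Tchh* and 0.15 for *Ivl*. Of all tested genes, 1.24% were called higher and 1.9% lower. *Sprr2d* had a log2 fold change of 2.88 (SE 1.74, adjusted p = 0.52), *Sprr2h* 2.14 (SE 1.6, adjusted p = 0.62) and *Lor* 1.03 (SE 1.58, adjusted p = 0.85). The tested *Lce* genes had -0.19 to 0.38 between the male and 0.47 to 2.78 between the female pools. Without the female *Pparg-cKO* array, *Ivl* was the 1 member called, against 1.14% of all genes called lower, and *Tchh* had 0.88 (adjusted p = 0.13). Without the male one 6 members were called, all higher and neither of these among them, against 0.262% of all genes, and without either control array 0 were. Among the 6 called without the male array, *Lce1a1* and *Lce1f* had passed the filter only through *Pparg-cKO* groups. A difference in them is therefore no independent evidence. The rule of the methods called *Sprr2d*, *Sprr2g*, *Lor* and *Tchh* higher and *Ivl* lower, against 3.06% and 3.23% of genes.

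Purmorphamine was compared with DMSO within each array. In *Pparg-cKO* ureters *Sprr2a2* fell by 1.91 on the log2 scale (SE 0.22, adjusted p = 0.022), as read by probe 2, with -1.56 for the male and -2.26 for the female pools. With the mean of its probes it fell by 0.70 (adjusted p = 0.046). *Sprr2a1*, not well above background in either purmorphamine pool, was at least 1.42-fold lower (adjusted p = 0.034). It passed the filter only through the DMSO groups, where it was higher, so this call is no independent evidence of a drop. No member was called higher, and 2.02% of all tested genes were called higher and 3.1% lower. *Sprr2d* had a log2 fold change of -2.35 (SE 0.68, adjusted p = 0.13), *Sprr2h* -2.09 (SE 0.57, adjusted p = 0.11), *Sprr2f* -1.26 (SE 0.27, adjusted p = 0.069) and *Sprr2g* -1.15 (SE 0.23, adjusted p = 0.059). On both *Pparg-cKO* arrays each of these 4 genes was lower with purmorphamine, and none passed the test. *Lor* had -0.36 for the male and -5.1 for the female pools.

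On the female *Pparg-cKO* array, 37 members exceeded an intensity of 100 in at least 1 channel, and 34 of them were at least 1.5-fold higher in the DMSO channel, with a median ratio of DMSO over purmorphamine of 10.4 and a highest ratio of 99.6 for *Sprr1b*. On the male *Pparg-cKO* array this held for 5 of 11 such members, with a highest ratio of 3.04. On the control arrays it held for 2 of 9 and 2 of 8. Of the members above an intensity of 100 on an array, 0 were at least 1.5-fold higher with purmorphamine on any of the 4 arrays. *Ivl* on the female control array fell just short, with a ratio of DMSO over purmorphamine of 0.668. The share of all genes past 1.5-fold on each array is not given here, so these counts do not set the members against other genes. Both readings of the female array come from 1 DMSO and 1 purmorphamine pool. The rule of the methods called *Sprr2a2*, *Sprr2d*, *Sprr2f*, *Sprr2g* and *Sprr2h* lower with purmorphamine in *Pparg-cKO* ureters, against 4.79% of genes called lower and 3.88% higher. The members called below without the male array include *Lce1f*, *Lce1g* and *Sprr2j-ps*, which passed the filter only through the *Pparg-cKO* DMSO group. A drop in them is therefore no independent evidence. Without the female *Pparg-cKO* array, *Sprr2a2* had -1.56 (adjusted p = 0.061) and 0 members were called by limma, against 0.603% of all genes called lower. Without the male one 18 were called lower and 0 higher, against 2.69% and 2.15% of all genes.

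In control ureters *Sprr2a2* also fell with purmorphamine, by 1.75 on the log2 scale (SE 0.22, adjusted p = 0.043), the other member called lower being *Sprr2a1* (adjusted p = 0.045, 0.056 with a replicate block). *Sprr2a1* was 27 and 38.1 in the control DMSO pools and 15 in both purmorphamine pools, of which 1 was well above background, and it was tested only through the DMSO groups, so no size is given. Of all tested genes, 0.405% were called higher and 1.12% lower. *Sprr2g* had -0.81 (SE 0.23, adjusted p = 0.15) and *Sprr1a* 0.46 (SE 0.12, adjusted p = 0.13), close to the 0.44 (SE 0.12, adjusted p = 0.11) of *Sprr1a* in *Pparg-cKO* ureters. The rule of the methods called *Sprr2a2* and *Sprr2g* lower, against 3.69% of genes called lower and 2.76% higher. The drop of *Sprr2a2* in control ureters had an adjusted p of 0.062 when the mean of its probes was used, with a log2 fold change of -0.79. Without either control array 0 members were called in control ureters.

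The responses of the genotypes to purmorphamine were also tested against each other. No member passed this test by limma, 3 of 25 had an unadjusted p under 0.05 (*Sprr2d*, *Sprr2f* and *Sprr2h*), the lowest adjusted p of the members was 1, and 0% of all tested genes were called in either direction. With an array left out, members were called only when it was the male *Pparg-cKO* array, and all were lower in *Pparg-cKO*. Those calls rest on the female *Pparg-cKO* array alone. They include members that had passed the filter only through *Pparg-cKO* groups, so a difference in those members is no independent evidence.

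Other genes of the complex did not all share the pattern. Between genotypes with DMSO the median log2 fold change was -0.02 for further genes of the cluster, 0.73 for envelope partners, 0.80 for late barrier genes and -0.03 for regulators, against 0.0042 for all 20229 tested genes. Of 20 further genes of the cluster, 16 were tested and 1 was lower in *Pparg-cKO* ureters with DMSO, 1 with purmorphamine, and 1 was lower with purmorphamine in *Pparg-cKO* ureters. The calcium-binding protein gene *S100a5* was 984 to 1320 in the control and 168 to 453 in the *Pparg-cKO* pools (log2 fold change with DMSO -2.48, SE 0.27, adjusted p = 0.0056). *S100a4* fell by 0.96 with purmorphamine in *Pparg-cKO* ureters (SE 0.11, adjusted p = 0.022). Chosen after their values were seen, *Crct1*, *Kprp*, *S100a8* and *S100a9* also stood out in the female *Pparg-cKO* DMSO pool. They were 1861, 848, 3667 and 11264 there against 15 to 74.1, 15, 18.2 to 180 and 15 to 255 elsewhere. Unlike the *Lce* genes, *S100a8* was lower in the female *Pparg-cKO* purmorphamine pool (34.2) than in the male control DMSO pool (180), where *S100a9* was 142.5. In contrast *S100a6* was 32367 to 45854, *S100a13* 2838 to 3679 and *S100a16* 11276 to 14925 over the 8 pools.

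Of 14 envelope partners, the enzymes and junction proteins that join the envelope, 12 were tested. Limma called 1 higher in *Pparg-cKO* ureters with DMSO, and with purmorphamine 1 higher and 2 lower in *Pparg-cKO* and 1 lower in control ureters. The desmosomal cadherin gene *Dsc1* was 15 in all control pools, 388 and 1042 in the *Pparg-cKO* DMSO pools and 89.8 and 50.7 with purmorphamine. With DMSO it was higher by at least 19.3-fold in *Pparg-cKO* ureters (adjusted p = 0.0048), though it passed the filter only through the *Pparg-cKO* groups, where it was high. With purmorphamine it had a log2 fold change of -2.83 there (SE 0.44, adjusted p = 0.038). The probe was not well above background in any control pool, and was so in both *Pparg-cKO* DMSO pools. *Tgm1*, the transglutaminase that cross-links the envelope, fell with purmorphamine by 1.53 in *Pparg-cKO* (SE 0.2, adjusted p = 0.028) and by 1.48 in control ureters (SE 0.2, adjusted p = 0.047), from 293 to 498 in the DMSO pools to 75.9 to 191. *Tgm5* rose by 1.38 in *Pparg-cKO* ureters (SE 0.21, adjusted p = 0.036). Of 13 late barrier genes 8 were tested and 0 called in any comparison by limma. With DMSO and with purmorphamine in *Pparg-cKO* ureters 1 gene each had an unadjusted p under 0.05, and the rule of the methods called 1 gene lower with purmorphamine in control ureters. In the female *Pparg-cKO* DMSO pool 11 of the 13 were above an intensity of 100, against 4 to 6 in the other 7, and their summed intensity was 21240 against 4152 to 5559. The brightest over all pools were the protease genes *St14* (1291 to 2273) and *Prss8* (1081 to 1389). Chosen after their values were seen, *Krtdap*, *Spink5*, *Klk7* and *Klk5* were 5436, 324, 255 and 175 in the female *Pparg-cKO* DMSO pool, and the highest of the other pools were 438, 15, 22.4 and 15.

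All 18 regulators of the complex that were listed were tested. The AP-1 subunit gene *Fosl1* fell with purmorphamine by 1.31 in *Pparg-cKO* (SE 0.1, adjusted p = 0.014) and by 1.37 in control ureters (SE 0.1, adjusted p = 0.019), from 103 to 196 in the DMSO pools to 28.2 to 59.3. *Cebpa* was lower in *Pparg-cKO* ureters by 1.00 with DMSO and 1.15 with purmorphamine (SE 0.14, adjusted p = 0.012 and 0.013), at 1810 to 1947 in the control and 713 to 940 in the *Pparg-cKO* pools. *Trp63*, the master regulator of stratified epithelia, was lower in *Pparg-cKO* ureters with purmorphamine (-1.11, SE 0.12, adjusted p = 0.011), and *Grhl3* rose with purmorphamine in *Pparg-cKO* ureters by 0.75 (SE 0.11, adjusted p = 0.033). None of the 4 stood apart in the female *Pparg-cKO* DMSO pool, where *Fosl1* was 127, *Cebpa* 940, *Trp63* 5224 and *Grhl3* 5048. The other regulators were not all alike in this pool. Chosen after their values were seen, *Ovol1* was 310 there against 68.3 to 145 elsewhere, and *Klf4* was 4022 against 3369 to 5951.

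Markers of other cell types were read in the same pools. Of 8 epidermal markers, 7 were above an intensity of 100 in the female *Pparg-cKO* DMSO pool, 6 in its purmorphamine partner and 1 or 2 in the other 6 pools, and their summed intensity was 29710, 2580 and 1233 to 2092 respectively. *Krt1* was 8048 in the female *Pparg-cKO* DMSO pool and 27.6 to 223 elsewhere, *Krt10* 8841 against 980 to 1770, and *Krt2*, the keratin of the uppermost living layers, was 15 in all 8 pools. Of 5 epidermal markers tested 1 was called, *Krt77*, which was lower with purmorphamine in *Pparg-cKO* ureters (log2 fold change -1.92, adjusted p = 0.039). *Krt1*, *Casp14*, *Asprv1*, *Calm4* and *Krtdap* were higher in both female *Pparg-cKO* pools than in every other pool, as were most *Lce* genes. So was *Krt77*, which was also 75.4 in the male *Pparg-cKO* DMSO pool. *Krt10* was 1231 in the female *Pparg-cKO* purmorphamine pool, within the 1098 to 1770 of the control pools. The part of these markers in the result was not tested. The 10 urothelial markers were all above 100 in every pool, with a sum of 138700 in the female *Pparg-cKO* DMSO pool and 125100 in the male one, against 161100 and 164300 in the control DMSO pools. With DMSO 4 of them were lower in *Pparg-cKO* ureters, among them *Krt20* (log2 fold change -3.7, SE 0.37, adjusted p = 0.0048), with 364 and 405 in the *Pparg-cKO* and 4843 and 5913 in the control pools. With purmorphamine 5 were higher in *Pparg-cKO* and 2 in control ureters, and between the genotypes with purmorphamine 2 were lower in *Pparg-cKO*.

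Leukocyte markers, 6 of 7 on the array, summed to 47430 in the female *Pparg-cKO* DMSO pool, of which *S100a9* gave 11264, and to 18140 to 39090 elsewhere. Limma called 0 of them in any comparison, 1 had an unadjusted p under 0.05 in each genotype comparison, and 5 and 4 did with purmorphamine in *Pparg-cKO* and control ureters. The rule of the methods called 1 higher in each genotype comparison and 1 and 2 lower with purmorphamine. The 5 kidney tubule markers summed to 280 and 321 in the *Pparg-cKO* DMSO pools and to 84.1 to 166 in the other 6. Of these, *Umod* and *Slc12a1* were called higher in *Pparg-cKO* ureters with DMSO and lower there with purmorphamine. Both passed the filter only through *Pparg-cKO* groups, *Slc12a1* through the DMSO group alone, at 57.1 and 50.9 there and 15 in the other 6 pools. With purmorphamine the sums were 90.4 and 84.1 in *Pparg-cKO* and 88.4 and 89.8 in control ureters. The part of these markers in the result for *Tchh* was not tested. Smooth muscle markers summed to 63820 to 77800 in the DMSO and 108700 to 133300 in the purmorphamine pools. Limma called 0 of these 3, while all 3 had an unadjusted p under 0.05 with purmorphamine in each genotype and the rule of the methods called 2 higher in *Pparg-cKO* ureters.

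**Figure D5:**
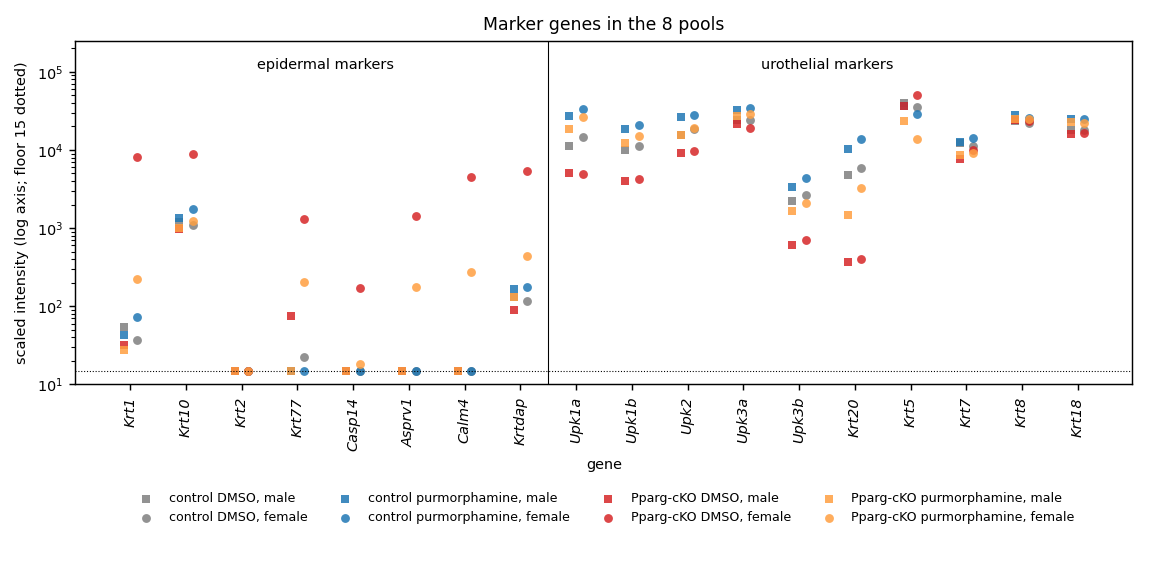
Scaled intensity (log axis) of 8 epidermal and 10 urothelial marker genes in the 8 pools. Symbols are as for the genes of the complex: squares male, circles female, colors for genotype and treatment, dotted line the floor of 15. In the female *Pparg-cKO* pool with DMSO all epidermal markers but *Krt2* are raised (170 to 8841), while the urothelial markers sum to 138700 there and to 125100 in the male *Pparg-cKO* pool with DMSO.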

How the data were processed

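RNA of 8 pools of cultured ureters was measured on 4 two-color Agilent arrays. The submitters' processing notes name Agilent Feature Extraction 10.7.3.1. Per the file headers, the deposited scanner files hold spot intensities, background intensities, a log10 ratio of red over green, and flags for spots well above background. The deposited value table holds a score per probe, which is the ratio of the treatments with a minus sign for decreases and an unstated normalization, and was used only as an alternative. Here, mean signals were background-corrected (normexp, offset 50), loess-normalized within and Aquantile-normalized between arrays, and fitted with limma 3.58.1 in R 4.3.3: separate channels (intraspot correlation 0.064) for genotype and log2 ratios for purmorphamine. A gene was read by its brightest probe if that was well above background in both pools of a group, and p-values were adjusted (Benjamini-Hochberg) over 20229 genes at a threshold of 0.05. Folds given as "at least" set the mean normalized log2 value against the lowest signal of any probe well above background. The fits were run on simulated data in which the spread between pools was capped. That run does not cover genes whose pools differ as widely as those of the *Lce* genes. The number of arrays limits the precision. All members were named, those passing the filter with their levels, and of each other list up to 4 genes past the test with the largest change, otherwise the 2 brightest. Members and lists were chosen with earlier results of these data known. Alternatives were other signals, filters, probes, thresholds, a replicate block and each array left out.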

Additional observations from a re-analysis of the deposited data

Results flagged for a closer look

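*Tchh* moved in opposite directions with purmorphamine in the genotypes: it was lower on both *Pparg-cKO* arrays (log2 differences -0.22 and -0.25) and higher on both control arrays (0.07 and 0.09). The difference between the genotypes was -0.32 (SE 0.14) and did not pass the test (limma, adjusted p = 1).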

How the results depend on the processing

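Values of single members were recomputed by limma only for those called by limma or by the rule of the methods, and none of these changed sign. By that rule, *Sprr2f* was lower between the male and higher between the female DMSO pools. The replicate numbers mark sex and dye, and the labels name no shared litter or day. The female-minus-male deviations of the groups correlated from -0.15 to 0.47. With a replicate block, limma called 0 members for *Pparg* loss with DMSO, 0 with purmorphamine and 1 for purmorphamine in control ureters, and 2 as before in *Pparg-cKO* ureters. A crossed pairing, chosen after seeing the data, called 1 member with DMSO by limma and 8 by the rule of the methods. For purmorphamine in control ureters, processed signals gave 1 call and the mean of probes 1. Without the filter on dim probes there was 1 call for *Pparg* loss with purmorphamine, and 0 for purmorphamine in either genotype. Leaving out each array, with the lone pool assumed to vary like the others, gave 0 to 15 calls for *Pparg* loss with DMSO, 0 to 6 with purmorphamine, 0 to 18 for purmorphamine in *Pparg-cKO*, 0 to 3 in control ureters and 0 to 13 for the difference between genotypes. Outside the comparison in control ureters, the highest counts came without the male *Pparg-cKO* array, where the female one stands alone. These calls include members that passed the filter only through *Pparg-cKO* groups or only through DMSO groups, so a difference in those members is no independent evidence. Without the female array the counts were lower. The share of all genes with an array left out is not given for purmorphamine in control ureters or for the difference between genotypes. Those counts therefore do not set the members against other genes. By the rule of the methods, the male pair alone called 8, 6, 5 and 2 members and the female pair alone 35, 20, 34 and 2, in the same order of comparisons with control ureters last. At 2-fold it called 2 for *Pparg* loss with purmorphamine, 2 for purmorphamine in *Pparg-cKO* and 1 in control ureters. In control ureters the absence of an intensity threshold gave 4 and the authors' table of values gave 4. Among these alternatives of the rule, shares of all genes are given only for the single pairs of *Pparg* loss with DMSO. The other counts therefore do not set the members against other genes. Of these values of single members, 146 kept their side of the threshold, 30 lost and 10 gained it.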
